A study of Homo sapiens with 8 samples.

Results

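The genes described here control plasmin formation and the start of blood coagulation at the cell surface. They are the plasminogen activators *PLAU* (urokinase) and *PLAT* (tissue type activator), the urokinase receptor *PLAUR*, the serpins *SERPINE2* and *SERPINB2*, the tissue factor gene *F3*, and the tissue factor pathway inhibitor genes *TFPI* and *TFPI2*. The 8 genes were chosen by name. For 7 of them a probe set was listed with that symbol alone, out of 22465 genes measured in the same way, and *SERPINB2* was not analysed here.

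RNA from a pair of immortalized human prostate lines was read on Affymetrix transcriptome arrays. BPH1 cells come from epithelium and WPMY-1 cells are stromal myofibroblasts. Each line was given vehicle or PAO, the bark extract of *Geissospermum vellosii* (Pao extract), at 250 μg/ml, with 2 arrays in each of the 4 groups. Treatment lasted 48 h by the labels, and the study's methods give a shorter time for the arrays. BPH1 cells were kept in RPMI medium and WPMY-1 cells in DMEM, so line and medium cannot be told apart. Each cell type is represented by 1 line, and the extract was taken up in DMSO and diluted in PBS. Nothing in the sources tells if repeats are separate cultures, and the p-values and intervals then cover array spread alone, which may be technical.

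Plasminogen activators cut plasminogen, a circulating proenzyme, into plasmin, a protease that dissolves fibrin and acts on matrix proteins. The urokinase receptor holds urokinase at the cell surface, and serpins trap the activators in inactive complexes. Tissue factor is the membrane receptor for factor VII and starts the coagulation cascade, while TFPI blocks that complex and TFPI2, a related Kunitz-type inhibitor, acts mainly on plasmin and other serine proteases. In the prostate, urokinase and its receptor are best known from work on tumour invasion.

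All values are log2 values after RMA, which corrects the background and brings the arrays to a common distribution. Within a group, r between the arrays was 0.996 to 0.997 over genes. Of 15 epithelial markers 14 were measured, and their median per array was between 8.32 and 8.53 in BPH1 cells and between 5.42 and 5.60 in WPMY-1 cells. For stromal markers, also 14 of 15, it was between 5.86 and 6.08 in BPH1 cells and between 7.21 and 7.71 in WPMY-1 cells. Leukocyte markers, which neither line should express, had medians of at most 4.63, and that level serves as a rough guide to values near background, since the table holds no detection calls. Markers of endothelium and of platelets, which neither line should express either, had higher medians, of up to 4.90 and 5.25. Every group mean of the 7 genes lay above the leukocyte guide, by 1.95 to 5.85, and above the other medians too. The levels of different genes were not set against each other, because each probe set has its own brightness. For the same reason a value above these medians does not by itself show expression.

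Before the values, short stretches of 3 promoters are shown, since AP-1, a transcription factor of the growth and stress response, is known to act on several of these genes. RefSeq windows on GRCh38.p14, from 250 bases before the start site to 50 after it, were searched for 7 of the 8 genes, with 9 windows in all. The letters TGANTCA, which read the same on both strands, occur in the windows of *PLAUR*, *F3*, *TFPI2* and *SERPINB2*, and in 7.71% of all 35116 windows of this length. For the windows without them, this says only that these letters are not in the window. The matches are in capitals below, on the minus strand in each case and read 5′ to 3′.
*F3*, chr1:94541951-94541994: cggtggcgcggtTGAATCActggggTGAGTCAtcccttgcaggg
*PLAUR*, chr19:43670337-43670367: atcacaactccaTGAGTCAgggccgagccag
*TFPI2*, chr7:93890822-93890852: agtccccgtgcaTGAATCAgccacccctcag
The first matched letter lies 223 bases from the start site in *F3*, which holds 2 matches, 186 bases in *PLAUR* and 87 in *TFPI2*.

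For each of the 7 genes the lines differed by more than either treatment did, although these sizes were not tested against each other. With vehicle, *F3* and the *TFPI* genes were higher in BPH1 cells, and *PLAT*, *PLAUR* and *SERPINE2* were higher in WPMY-1 cells. Tissue factor showed the widest gap, at 7.66-fold, followed by the tissue type activator at 4.36-fold in the opposite direction. Of the 7 genes, 3 were higher and 3 lower in WPMY-1 cells past an adjusted p of 0.05 from limma. Among all genes, 30.9% passed this test, 15.3% (3442 genes) higher and 15.6% (3495 genes) lower. With each array centred on its median, which moves this difference by 0.11 for every gene, 5141 genes were higher and 2494 lower, and the calls of the 7 genes were the same. With the methods' t-test after adjustment, none of the 7 genes passed.

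**Figure D1:**
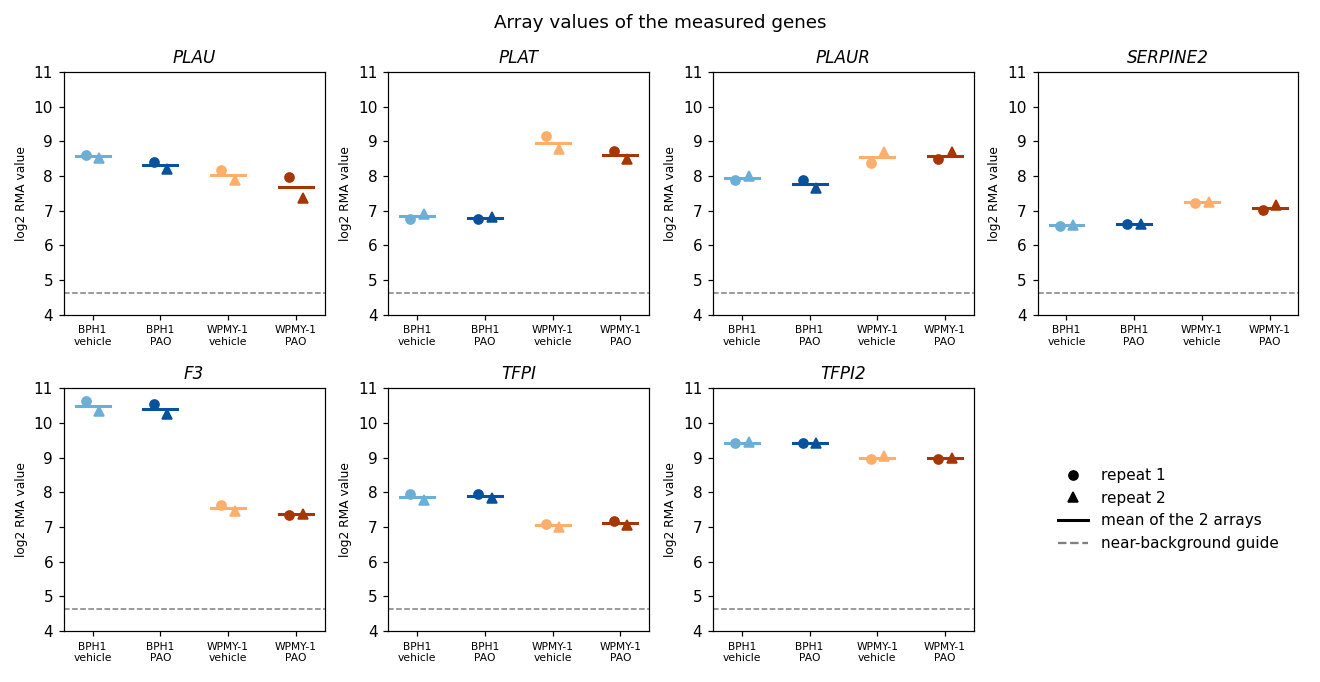
Log2 RMA values (y axis) of the 7 measured genes on each of the 8 arrays, by group (x axis). Circles and triangles are the first and second array of a group, bars their mean, and the dashed line the near-background guide of 4.63. *F3* has its lowest BPH1 value at 10.25 and its highest WPMY-1 value at 7.63, and *PLAT* shows the reverse order.

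*F3*, which encodes the initiator of coagulation, had log2 values of 10.63 and 10.33 on the vehicle arrays of BPH1 cells and of 7.63 and 7.45 on those of WPMY-1 cells. The 2 BPH1 arrays lay well above both WPMY-1 arrays. The difference, WPMY-1 minus BPH1, was -2.94 on the log2 scale (standard error 0.13, adjusted p = 9.7e-07 from limma). In the order of all genes by this difference, *F3* held place 62 from the lower end, and its BPH1 vehicle mean lay above that of 99.4% of genes on the same arrays.

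The inhibitor of the tissue factor complex lay on the same side. *TFPI* had values of 7.94 and 7.78 in BPH1 cells and of 7.09 and 6.998 in WPMY-1 cells, a difference of -0.82 (standard error 0.087, adjusted p = 1.7e-04 from limma), or 1.76-fold. *TFPI2* had values of 9.41 and 9.44 in BPH1 cells and of 8.95 and 9.05 in WPMY-1 cells. Its arrays did not overlap between the lines either, and the difference of -0.42 (standard error 0.066, adjusted p = 0.0015 from limma) was the smallest of the 7. Both arrays of BPH1 cells were thus the higher ones for tissue factor and for both inhibitors.

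The activators split. *PLAT* had values of 6.77 and 6.90 in BPH1 cells and of 9.15 and 8.77 in WPMY-1 cells, a difference of 2.12 (standard error 0.13, adjusted p = 5.7e-06 from limma), at place 138 from the upper end of all genes. *PLAU* went the other way, with 8.61 and 8.53 in BPH1 cells and 8.18 and 7.89 in WPMY-1 cells. The groups did not overlap, but the difference of -0.54 (standard error 0.19, adjusted p = 0.060 from limma) missed the threshold. It passed when the fit held only the arrays compared (adjusted p = 0.0068), and over the alternatives its adjusted p ranged from 0.0063 to 0.25.

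The urokinase receptor and the serpin were higher in the stromal line. *PLAUR* had 7.89 and 8.00 in BPH1 cells and 8.38 and 8.69 in WPMY-1 cells, a difference of 0.59 (standard error 0.13, adjusted p = 0.0077 from limma). For *SERPINE2*, which encodes protease nexin 1, an inhibitor of thrombin and of both activators, the values were 6.56 and 6.60 against 7.21 and 7.26, a difference of 0.66 (standard error 0.072, adjusted p = 2.0e-04 from limma). The vehicle arrays of the lines did not overlap for any of the 7 genes, which was also so for 62.9% of all genes.

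**Figure D2:**
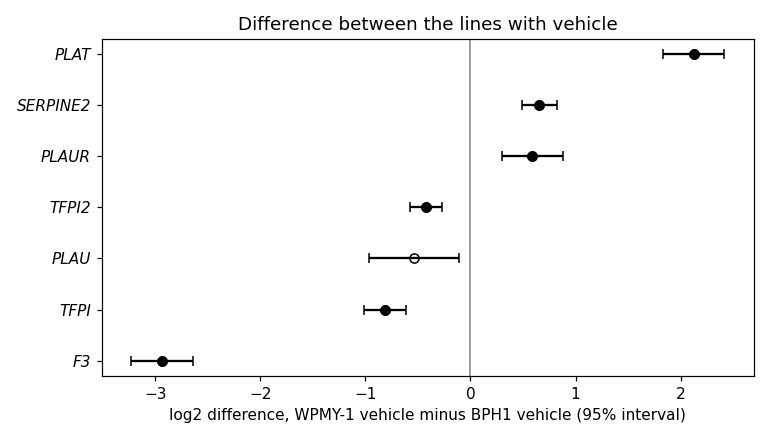
Difference of the vehicle arrays, WPMY-1 minus BPH1, on the log2 scale (x axis) for the 7 genes, with 95% intervals from limma. Filled points passed an adjusted p of 0.05 and the open one, *PLAU*, did not. The intervals of *F3* and *PLAT* lie on opposite sides of 0, from -3.23 to -2.65 and from 1.84 to 2.41.

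With Pao extract the changes were small in both lines. In BPH1 cells 0 of the 7 genes passed limma's test, as did 0 of all genes (0%), although 510 genes had higher and 417 had lower values at an unadjusted p under 0.05. None passed the methods' t-test after adjustment. No member reached 1.4-fold, the cutoff of the study, which 0.298% of all genes (67 genes) did. The study gives larger counts of genes at this cutoff in both lines than were found here, and the reason was not tested. At an unadjusted p under 0.05 from limma, 0 of the 7 genes were found. The median log2 fold change of the 7 genes was -0.05, beside -0.01 over all genes.

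In WPMY-1 cells 0 of the 7 genes passed limma's test, beside 15 of all genes (0.0668%), and none of them reached 1.4-fold, beside 1.02% of all genes. At an unadjusted p under 0.05, 1 of the 7, *PLAT*, was found, where 11.2% of all genes were. The median of the 7 was -0.15, beside 0.03 over all genes. A result missed by this test does not show that a gene was unaffected, and with 2 arrays a group the smallest 2-sided p of an exact permutation test is 0.333.

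*PLAU*, the urokinase gene, had the largest log2 fold change in each line. In BPH1 cells it went from 8.61 and 8.53 with vehicle to 8.40 and 8.20 with Pao extract, so both treated arrays lay below both vehicle arrays. The log2 fold change was -0.27 with a 95% interval from -0.69 to 0.16 (adjusted p = 1.00 from limma). In WPMY-1 cells *PLAU* went from 8.18 and 7.89 to 7.98 and 7.37. Here the groups overlapped, and the second treated array was far below the other arrays. The log2 fold change of -0.36 had an interval from -0.79 to 0.06 (adjusted p = 0.48 from limma), and it was -0.06 without the second Pao array and -0.67 without the first.

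*PLAT* read in BPH1 cells 6.77 and 6.90 with vehicle and 6.76 and 6.80 with Pao extract, a log2 fold change of -0.05 with an interval from -0.34 to 0.23. In WPMY-1 cells, where its level is higher, it went from 9.15 and 8.77 to 8.71 and 8.50. Both treated arrays lay below both vehicle arrays, by a margin that was small beside the gap between the vehicle arrays. The log2 fold change was -0.35, or 1.28-fold, with an interval from -0.64 to -0.07 (adjusted p = 0.41 from limma, unadjusted p = 0.022 from limma). It was -0.17 without the first vehicle array and -0.54 without the second. The median of the stromal markers was also lower with Pao extract in this line. It was 7.57 and 7.71 on the vehicle arrays and 7.21 and 7.43 on the treated arrays. The median of the epithelial markers was higher, at 5.42 and 5.49 with vehicle and 5.53 and 5.60 with Pao extract. That of the leukocyte markers was higher too, at 4.27 and 4.31, then 4.54 and 4.57. The endothelial and platelet medians overlapped between the groups. The part of these shifts in the values of *PLAT* was not tested.

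For the receptor, *PLAUR*, the arrays of BPH1 cells read 7.89 and 8.00 with vehicle and 7.88 and 7.66 with Pao extract, without overlap but with a first pair that nearly touched. The log2 fold change was -0.18 with an interval from -0.47 to 0.11. In WPMY-1 cells the values were 8.38 and 8.69, then 8.48 and 8.69. The treated arrays lay within the range of the vehicle arrays, with a log2 fold change of 0.05 (interval from -0.24 to 0.34).

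*SERPINE2* was the gene whose arrays separated in opposite directions in the lines. In BPH1 cells it read 6.56 and 6.60 with vehicle and 6.62 and 6.63 with Pao extract, a log2 fold change of 0.04 (interval from -0.12 to 0.21). In WPMY-1 cells it read 7.21 and 7.26 with vehicle and 7.01 and 7.16 with Pao extract, a log2 fold change of -0.15 (interval from -0.32 to 0.01). The difference of the effects, -0.19, did not pass (standard error 0.10, adjusted p = 0.69 from limma), and 0% of all genes passed limma's test for such a difference, with 1017 positive and 585 negative ones at an unadjusted p under 0.05.

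Tissue factor and its inhibitors complete the set. *F3* in BPH1 cells had 10.63 and 10.33 with vehicle and 10.55 and 10.25 with Pao extract. The arrays of the groups interleaved, and the log2 fold change was -0.08 (interval from -0.37 to 0.21). In WPMY-1 cells *F3* had 7.63 and 7.45, then 7.36 and 7.38, so both treated arrays lay lower, by -0.17 on the log2 scale (interval from -0.46 to 0.12). *TFPI* had 7.96 and 7.84 with Pao extract in BPH1 cells and 7.18 and 7.05 in WPMY-1 cells, with overlap in both lines and log2 fold changes of 0.04 and 0.07. *TFPI2* had 9.42 and 9.42, then 8.96 and 8.99, with overlap and log2 fold changes of -0.01 and -0.02. The 95% interval of *TFPI2* spanned -0.16 to 0.15 in BPH1 cells and -0.18 to 0.13 in WPMY-1 cells, so a change of 1.4-fold lies outside both. This is not particular to *TFPI2*, since only the intervals of *PLAU* in both lines and of *PLAT* in WPMY-1 cells reached past 1.4-fold. Those of *PLAUR* in BPH1 cells and of *F3* in WPMY-1 cells came close to it. As with the p-values, these intervals cover the spread of arrays, which may be technical, and cannot show how far separate cultures would differ.

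**Figure D3:**
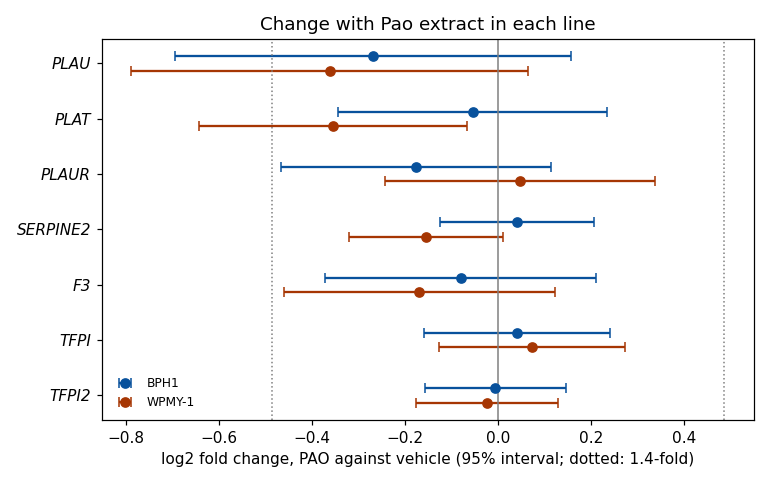
Log2 fold change of Pao extract against vehicle (x axis) for the 7 genes in BPH1 cells (blue) and WPMY-1 cells (brown), with 95% intervals from limma and dotted lines at 1.4-fold. Every point lies inside the dotted lines, and 1 interval, that of *PLAT* in WPMY-1 cells, does not include 0.

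The treated and vehicle arrays did not overlap for 3 of the 7 genes in BPH1 cells (*PLAU* and *PLAUR* lower, *SERPINE2* higher) and for 3 in WPMY-1 cells (*PLAT*, *SERPINE2* and *F3*, all lower). Over all genes the shares were 33.3% and 43.6%, so these counts are near the background. Taking both lines together, *PLAU* averaged -0.32 on the log2 scale (adjusted p = 0.64 and unadjusted p = 0.042 from limma, standard error 0.13). *PLAT* averaged -0.20 (adjusted p = 0.67 and unadjusted p = 0.0495 from limma, standard error 0.089). At an unadjusted p under 0.05 from limma, 2 of the 7 were found, beside 7.49% of all genes (958 higher, 725 lower). None of the 7 genes passed after adjustment in this comparison, where 0.0312% of all genes did. For *F3*, *TFPI2* and *PLAU* the group means ran from BPH1 vehicle down through BPH1 Pao and WPMY-1 vehicle to WPMY-1 Pao, and for *TFPI* from BPH1 Pao through BPH1 vehicle and WPMY-1 Pao to WPMY-1 vehicle. For *PLAT* they ran from WPMY-1 vehicle through WPMY-1 Pao and BPH1 vehicle to BPH1 Pao. *SERPINE2* had the same upper end but ended with BPH1 vehicle, and *PLAUR* began with WPMY-1 Pao and ended with BPH1 Pao. In each order the neighbours within a line did not differ past the test.

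After subtracting the mean of each line, the genes most like *PLAU* over the 8 arrays were *NRP2*, which encodes the co-receptor neuropilin 2, *EP400*, a chromatin remodeling ATPase, and *VMA21*, an assembly factor of the proton pump. Their Pearson correlations with *PLAU* were 0.985, 0.984 and 0.977 among 11232 genes of at least median level. The points share 8 arrays and their scaling, and 18 genes had r of at least 0.95. *NRP2* had log2 fold changes with Pao extract of -0.21 in BPH1 and -0.36 in WPMY-1 cells. Those of the others were smaller, at -0.097 and -0.10 for *EP400* and at -0.037 and -0.084 for *VMA21*. Among the genes themselves, *PLAT* was most like *PLAU* (r = 0.78), and *F3* followed (r = 0.57).

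The other genes of the pathway were taken from 5 lists. Their counts between the lines stand beside 30.9% of all genes past limma's test. With Pao extract the shares of all genes were 0% in BPH1 and 0.0668% in WPMY-1 cells. Of 14 further genes of the plasminogen system, 0 passed limma's test with Pao extract in either line, and the medians were -0.04 in BPH1 and -0.03 in WPMY-1 cells. The one gene past 1.4-fold was *THBS1*, which encodes a matrix glycoprotein that binds plasminogen and plasmin, in WPMY-1 cells. It read 9.53 and 9.03 there with vehicle and 8.70 and 7.82 with Pao extract, or -1.01 on the log2 scale (adjusted p = 0.30 from limma, standard error 0.26). In BPH1 cells it read 10.50 and 10.27, then 9.98 and 9.89. As for *PLAU*, the second treated WPMY-1 array was the lowest of the 8. *PLG*, the plasminogen gene itself, lay below the near-background guide in both lines, at 3.24 and 3.32 with vehicle.

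Between the lines, 2 of these 14 genes were higher in WPMY-1 cells past the test and 3 were lower. *LRP1*, the endocytic receptor that clears activator and inhibitor complexes, was higher by 1.53 on the log2 scale (adjusted p = 6.6e-05 from limma). *THBS1* was lower by -1.11, the plasminogen receptor gene *PLGRKT* by -0.57 and the lipoprotein receptor gene *VLDLR* by -0.43. *PLGRKT* read 5.21 in WPMY-1 cells, just below the platelet median of 5.25, against which BPH1 cells were at least 1.45-fold higher. *ANXA2*, which with *S100A10* binds plasminogen at the cell surface, was higher by 0.39.

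Of 25 genes of the coagulation cascade, its cofactors and the anticoagulant pathway, 0 passed with Pao extract in either line, with medians of -0.05 in BPH1 and 0.06 in WPMY-1 cells. Between the lines 2 were higher in WPMY-1 cells and 3 lower. *THBD*, the thrombomodulin gene, whose product turns thrombin towards protein C, read 6.99 in BPH1 and 5.78 in WPMY-1 cells with vehicle, a difference of -1.21 (adjusted p = 4.6e-06 from limma). *PROCR*, the endothelial protein C receptor, followed at -0.57. The vitamin K dependent growth factor gene *GAS6* was higher in WPMY-1 cells by 0.88 and *GGCX*, the carboxylase of vitamin K dependent proteins, by 0.64. *F5* passed as well, but its vehicle means of 3.69 and 3.08 lie below the near-background guide and are no measure of expression. Thus the surface anticoagulants *THBD* and *PROCR* lay on the same side as *F3* and *TFPI*. *SERPINE2*, whose product inhibits thrombin, lay on the other side, and the other anticoagulant genes of this list did not pass the test.

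Of the protease-activated receptors, which thrombin and other proteases switch on by cutting them, 3 of 4 were measured and 0 passed with Pao extract, with medians of -0.18 in BPH1 and 0.08 in WPMY-1 cells. Between the lines 2 were higher in WPMY-1 cells. *F2RL2* (PAR3) read 4.73 and 4.76 in BPH1 and 8.04 and 7.97 in WPMY-1 cells, and the difference passed the test (adjusted p = 1.5e-07 from limma). The BPH1 values lie above the leukocyte guide but below the platelet median of 5.25, against which WPMY-1 cells were at least 6.78-fold higher. *F2R* (PAR1), the main thrombin receptor, read 5.85 and 5.96 against 7.02 and 7.15, a difference of 1.18 (adjusted p = 2.7e-05 from limma).

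Among 15 other serpins, 0 passed with Pao extract, with medians of 0.02 in BPH1 and 0.10 in WPMY-1 cells. Between the lines 12 differed past the test, 5 higher and 7 lower in WPMY-1 cells. *SERPINI1* is among the 5, but its vehicle means of 3.86 and 4.09 lie below the near-background guide and are no measure of expression. Among the 7, *SERPINA1* and *SERPINA3* read 4.999 and 5.13 in BPH1 cells with vehicle, below the platelet median. In WPMY-1 cells they read 4.55 and 4.45, below the near-background guide, so both calls rest on levels near background. *SERPINB5* (maspin), an epithelial serpin without inhibitory action, read 9.67 and 9.54 in BPH1 and 3.25 and 3.29 in WPMY-1 cells. Since the WPMY-1 values lie below the near-background guide, BPH1 cells were at least 31.4-fold higher against that guide, and at least 20.5-fold against the platelet median, a comparison added after seeing the data. *SERPINB3*, *SERPINB4* and *SERPINB13* were at least 11.3-fold, 7.35-fold and 8.80-fold higher in BPH1 cells against the leukocyte guide, and at least 7.38-fold, 4.80-fold and 5.75-fold against the platelet median. *SERPINB3* and *SERPINB4* are near-identical copies whose probes may bind the same RNA. *SERPINH1*, the collagen chaperone HSP47 and part of the same list, was higher in WPMY-1 cells by 1.30. *SERPINH1*, *PROCR*, *ANXA2*, *PLG*, *SERPINA1*, *SERPINA3*, *SERPINB7*, *SERPINB8*, *SERPINI1* and *TMPRSS11D* were chosen after their values were seen. The B-clade serpins did not all lie on one side, since *SERPINB7* and *SERPINB8* were higher in WPMY-1 cells, by 0.46 and 0.30.

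Of 14 membrane-anchored and related serine proteases and Kunitz-type inhibitors, 0 passed with Pao extract. The medians were 0.04 in BPH1 and 0.07 in WPMY-1 cells. Between the lines 7 were lower and 0 higher in WPMY-1 cells past the test. *TMPRSS11D* is among the 7, but its vehicle means of 3.61 and 3.02 lie below the near-background guide and are no measure of expression. *SPINT2* and *SPINT1*, inhibitors of the hepatocyte growth factor activators, differed by -2.40 and -1.68. The protease *TMPRSS11E* lay below the near-background guide in WPMY-1 cells, so BPH1 cells were at least 2.66-fold higher. Against the platelet median this bound was 1.74-fold. *TMPRSS4*, at 4.82 in WPMY-1 cells, lay between these levels, and BPH1 cells were at least 3.26-fold higher against the platelet median.

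**Figure D4:**
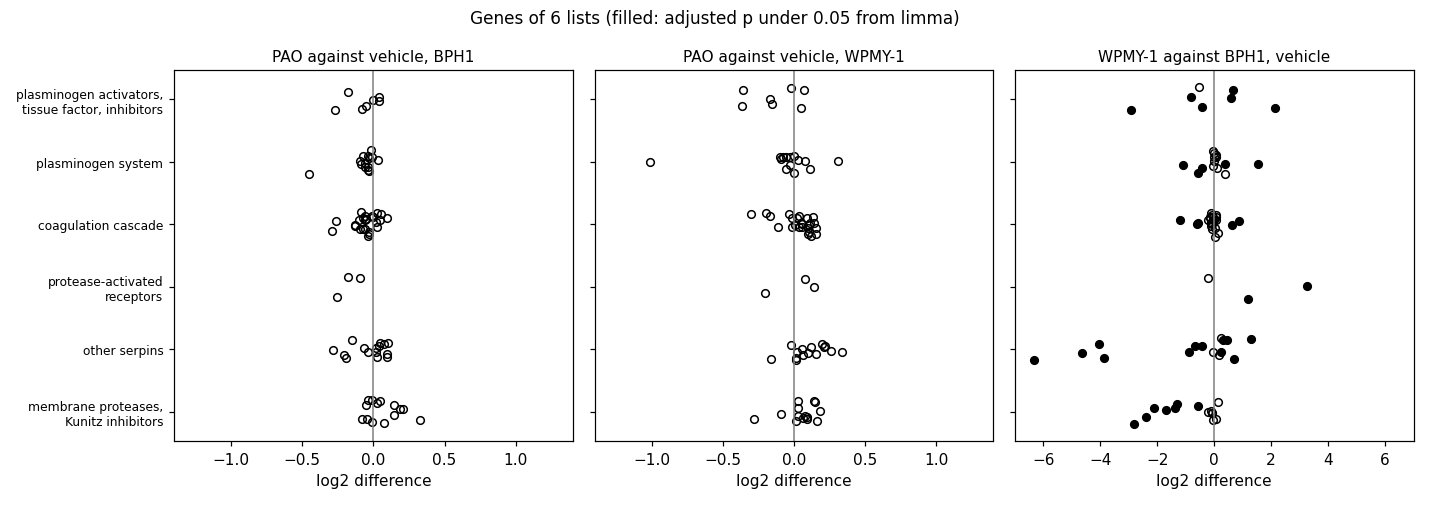
Log2 differences (x axes) of the 7 genes and of the 5 further lists (rows), for Pao extract against vehicle in each line and for WPMY-1 against BPH1 cells with vehicle. Each point is a gene, and filled points passed an adjusted p of 0.05 from limma. All points of both treatment panels are open, with *THBS1* in WPMY-1 cells farthest out at -1.01. In the panel of the lines *SERPINB5* lies farthest out on the negative side and *F2RL2* on the positive side. Differences from a level near background are plotted as measured but stand only for bounds.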

How the data were processed

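The 8 RNA samples were hybridised to Affymetrix transcriptome arrays. The authors deposited log2 values after RMA, which can hide a shift of all genes, for 67528 probe sets. The version of RMA and the genome build were not stated in any source at hand. The platform annotation lists 23781 probe sets with 1 symbol and 1543 with several, and it does not list 42204. Each gene was represented by its brightest probe set on average over the arrays, which gave 22465 genes, 20299 of them matched to RefSeq by gene ID. No pseudocount and no filter were applied.

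Group means were estimated with limma 3.58.1 (lmFit and eBayes) in R 4.3.3 on the 8 arrays jointly, with 4 residual degrees of freedom, and p-values were adjusted by Benjamini-Hochberg over all genes of a comparison. The script was tested on simulated data. The number of arrays limits the precision. The rule for named genes took all members. Of each list it took up to 4 genes per line by size of the Pao effect, among those past the test or 1.4-fold, and up to 4 by baseline difference among those past the test. It also took the 3 genes most like the member with the largest Pao effect. Genes and lists were chosen with earlier results of these data known. Alternatives were quantile normalization, centring, a filter on dim genes, other probe set choices, another variance model, a fit on the arrays compared, the methods' t-test, a replicate block, other cutoffs, and leaving out each array. *SERPINB2*, *VTN*, *F2RL1*, *SERPINB6* and *SERPINB10* were not analysed here.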

Additional observations from a re-analysis of the deposited data

How the results depend on the processing

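Of the 35 values of the 7 genes over 5 comparisons, 12 changed sign under some alternative, and in the main setting each of these was at most 0.093 in size on the log2 scale. None of the comparisons between the lines changed direction. After a further quantile normalization, *TFPI2* read 8.4e-04 in BPH1 and 0.020 in WPMY-1 cells, with 0.020 for the difference of the Pao effects and 0.011 for both lines together. With arrays centred on their median it read 0.011 in BPH1 cells, *PLAUR* read -0.0023 in WPMY-1 cells, and *TFPI* -0.036 for the difference of the effects. Leaving out 1 array at a time gave, for the effect in BPH1 cells, ranges from -0.12 to 0.0082 for *PLAT*, from -0.23 to 0.069 for *F3*, from -0.036 to 0.12 for *TFPI* and from -0.020 to 0.0087 for *TFPI2*. In WPMY-1 cells the range was from -0.11 to 0.20 for *PLAUR* and from -0.075 to 0.030 for *TFPI2*. For the difference of the effects it was from -0.40 to 0.21 for *PLAU*, from -0.24 to 0.060 for *F3*, from -0.046 to 0.11 for *TFPI* and from -0.070 to 0.035 for *TFPI2*, and for both lines together from -0.14 to 0.013 for *PLAUR* and from -0.040 to 0.012 for *TFPI2*. The cause was not tested.

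The count of members past 1.4-fold in WPMY-1 cells was 0 and ranged from 0 to 2 when 1 array was left out (2 without the second vehicle array, 1 without the first Pao array). At a cutoff of 1.2-fold it was 1 in BPH1 and 2 in WPMY-1 cells, and at 2-fold 0 in both. The share of all genes was not counted at these cutoffs or with an array left out, so no background stands beside these counts. Between the lines, 3 members higher and 3 lower became 0 and 0 with the methods' t-test after adjustment, which has 2 arrays a group to estimate each spread. *PLAU* passed there with the dim genes left out (adjusted p = 0.035 from limma), without either Pao array of WPMY-1 cells (adjusted p = 0.0098) and in the fit on the arrays compared.

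The labels give arrays of each group the same repeat numbers without saying what these mark, so the numbers were not used as pairs. Deviations of same-numbered arrays correlated with r = 0.50 in BPH1 cells, 0.43 in WPMY-1 cells and 0.34 between the vehicle arrays of the lines. Against same-numbered vehicle arrays, *PLAU*, *PLAT* and *F3* were lower with Pao extract in 4 of 4 cases and *TFPI* higher. Some of these differences were near 0, such as -0.013 for *PLAT* and 0.024 for *TFPI* in BPH1 number 1. The other genes were mixed. No share of all genes was counted, so these counts have no background beside them and no result is drawn from them. With a replicate block in each line, 0 of the 7 genes passed with Pao extract, with adjusted p = 0.064 for *PLAT* and 0.093 for *PLAU* in WPMY-1 cells from limma, and *PLAU* passed between the lines (adjusted p = 0.0063). Over all genes, the WPMY-1 calls were 4 higher and 1 lower after quantile normalization and 0 with centring, with the fit on the arrays compared and with the t-test, which called 17 higher and 13 lower between the lines. With the block the calls went from 0 to 3 higher in BPH1 cells and from 10 higher and 5 lower to 98 and 125 in WPMY-1 cells.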
